A study of Homo sapiens with 16 samples.

Results

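γ-Tubulin ChIP-seq peaks were examined in the clusters of replication-dependent histone genes, where 20 of the 2962 listed peaks lay. The peaks were chosen by position among those the authors had called. A peak was taken when it overlapped 1 of 4 windows of hg19 by at least 1 bp, namely chr6:26000000-28000000 (HIST1), chr1:149750000-149870000 (HIST2), chr1:228600000-228660000 (HIST3) and chr12:14900000-14940000 (HIST4H4). Being listed as a peak is itself a measured value, and the windows were proposed with earlier results of these data known, so all numbers below are descriptions and no test was made.

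MCF10A is a cell line of non-tumour human breast epithelium. It was compared with γTubulinsh-MCF10A, a population of the same line that stably carried a short hairpin RNA (shRNA) against γ-tubulin and was kept under Zeocin selection. All cells had been arrested by a double thymidine block and were harvested 1 h or 2 h after release, in S-phase. DNA bound to γ-tubulin was recovered from sonicated nuclei with γ-tubulin antibodies. Each of the 4 conditions had 2 ChIP libraries, and libraries of whole cell extract (WCE), without antibody, served as control. The ChIP libraries of a condition share a single peak list, so the values have no spread between replicates.

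γ-Tubulin is best known for nucleating microtubules at centrosomes, and it is also found in the nucleus. Replication-dependent histone genes encode the linker histone H1 and the core histones H2A, H2B, H3 and H4. They are short, lack introns, stand close together and are transcribed strongly in S-phase, when new DNA is packed into nucleosomes. Their mRNAs end in a stem-loop in place of a poly(A) tail. In RefSeq, 71 protein-coding genes carried a current or older symbol that begins with HIST1, HIST2, HIST3 or HIST4. The HIST1 cluster on chromosome 6 held 55 of them, with 6 H1, 12 H2A, 15 H2B, 10 H3 and 12 H4 genes. HIST2 on chromosome 1 held 12, HIST3 held 3, and HIST4 is the single H4 gene named HIST4H4. These names come from the assembly GRCh38.p14, whereas the peaks are placed on hg19. No gene model of hg19 was used here, so the summits were not assigned to single histone genes.

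The list of γTubulinsh-MCF10A cells at 2 h held 15 of the 20 peaks, although it was the shortest of the lists. The MCF10A lists held 4 at 2 h and 0 at 1 h, and the remaining peak was in the γTubulinsh-MCF10A list at 1 h. As a share of all nuclear peaks, this was 19.0% (15 of 79) in the γTubulinsh-MCF10A 2 h list, compared with 0.347% (1 of 288) in the 1 h list of the same cells. The MCF10A lists had shares of 0.261% (4 of 1531) at 2 h and 0% (0 of 1035) at 1 h. Between 1 h and 2 h the number in the histone windows went from 1 to 15 in γTubulinsh-MCF10A cells, while their other nuclear peaks went from 287 to 64. In MCF10A cells the number went from 0 to 4, and the other nuclear peaks from 1035 to 1527. The windows span 2.22 Mb together. In γTubulinsh-MCF10A cells at 2 h they held 6.76 peaks per Mb, against 0.0221 per Mb elsewhere in the nuclear genome. The corresponding densities were 1.80 and 0.528 per Mb in the MCF10A 2 h list, and 0.450 and 0.0993 per Mb in the γTubulinsh-MCF10A 1 h list. The MCF10A 1 h list had 0 per Mb in the windows and 0.358 per Mb elsewhere. With 1 list per condition, these differences could not be set against replicate error.

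The 20 peaks fell into HIST1 and HIST2, with 16 and 4 peaks, and none was listed in HIST3 or HIST4H4. Only the γTubulinsh-MCF10A 2 h list had peaks in HIST2. Joined across lists when within 2000 bp of each other, the peaks formed 9 sites, of which 6 had peaks of 1 list, 2 of 2 lists and 1 of 3 lists. γTubulinsh-MCF10A cells at 2 h had peaks at 8 sites and MCF10A cells at 2 h at 4. All HIST1 peaks lay within 215322 bp near the start of the 2 Mb window. The first began 55992 bp after the window's start and the last ended 1728687 bp before its end. Outside the window, the nearest peak of γTubulinsh-MCF10A cells at 2 h was 2.71 Mb away, with a fold enrichment of 7.13. That of MCF10A cells at 2 h was 1.19 Mb away, with a fold enrichment of 5.13. In HIST2 the last peak ended 10794 bp inside the window, and the nearest peak outside it in any list was 0.674 Mb away, in γTubulinsh-MCF10A cells at 1 h.

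**Figure D1:**
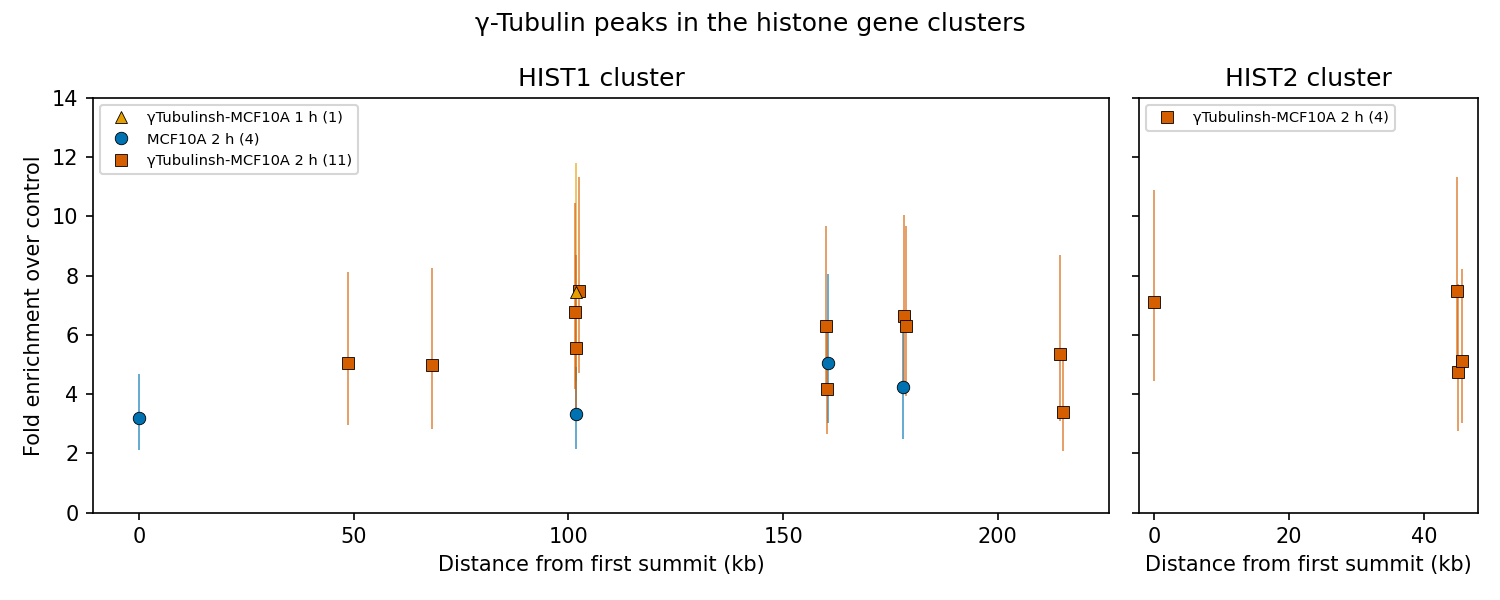
Fold enrichment of each peak (vertical axis) against the distance of its summit from the first summit of the cluster (horizontal axis, kb) in HIST1 (left) and HIST2 (right), coloured by list. Lines are exact 95% Poisson intervals for the ChIP reads, turned into fold enrichment with the background held fixed. They cover counting error of the ChIP reads only, not that of the control. The 11 HIST1 peaks of γTubulinsh-MCF10A cells at 2 h form 6 groups, and HIST2 has peaks of that list alone.

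The authors' fold enrichment divides the ChIP pileup plus 1 by the local control background plus 1, at the summit. Pileup and background were recovered from the fold enrichment and the p-value. The pileup counts the reads of both libraries that cover a summit, and it was assumed to be whole. A whole pileup matched the −log10 p-value to within 0.01 in 100% of the peaks of every list. In the γTubulinsh-MCF10A 2 h list the pileup enters the fold enrichment after multiplication by 0.943, a factor fitted to give this match. The control background is the number of reads expected there, from the local WCE or from a genome-wide floor where that is higher. It is also given as a multiple of the lowest background of the same list, which stands for the genome background. At summits on this lowest value, the local WCE may have predicted fewer reads. Intervals are exact 95% Poisson intervals for the ChIP reads and cover their counting error only, not that of the control.

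In HIST1, the site with peaks in 3 lists ran from 26157369 to 26158504 on chromosome 6. γTubulinsh-MCF10A cells at 1 h had their only histone cluster peak here, at chr6:26157611-26157845, with 16 reads (9.14 to 26.0) over a background of 1.28 and a fold enrichment of 7.45. MCF10A cells at 2 h had a peak at chr6:26157681-26157881 with 23 reads (14.6 to 34.5) over a background of 6.21, and its fold enrichment was 3.33. Its summit was 25 bp from that of the 1 h peak. γTubulinsh-MCF10A cells at 2 h had 3 peaks at this site. The middle peak, chr6:26157784-26157975, overlapped both of the others and had 17 reads (9.90 to 27.2) over a background of 2.07, for a fold enrichment of 5.55. The peaks on either side, chr6:26157369-26157510 and chr6:26158279-26158504, had fold enrichments of 6.76 and 7.47, with 18 and 20 reads over the lowest background of the list, 1.66. The summits of the 3 peaks were 393 bp and 553 bp apart. MCF10A cells at 2 h thus had the most reads over a single summit of this site and the lowest fold enrichment, over the highest background.

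A second site in HIST1 ran from 26215857 to 26216646. At chr6:26216338-26216466, MCF10A cells at 2 h had 16 reads (9.14 to 26.0) over a background of 2.35, and the fold enrichment of 5.07 was the highest of their 4 peaks. This peak lay entirely inside the peak chr6:26216275-26216646 of γTubulinsh-MCF10A cells at 2 h, and the summits were 7 bp apart. The latter had 21 reads (13.0 to 32.1) over a background of 4 and a fold enrichment of 4.16. Of these overlapping peaks, the one of the γTubulinsh-MCF10A list had the lower fold enrichment, with overlapping intervals of 2.65 to 6.26 and 3.02 to 8.04. At the other sites that both 2 h lists shared, the overlapping peak of the γTubulinsh-MCF10A list had the higher one, also with overlapping intervals. γTubulinsh-MCF10A cells at 2 h had another peak at this second site, chr6:26215857-26216042, with 19 reads and a fold enrichment of 6.31.

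The third shared site ran from 26233802 to 26234858. MCF10A cells at 2 h had 15 reads (8.39 to 24.7) over a background of 2.77 at chr6:26233802-26234038, for a fold enrichment of 4.24. γTubulinsh-MCF10A cells at 2 h had 20 reads (12.2 to 30.9) over a background of 2.00 at chr6:26233891-26234369, for a fold enrichment of 6.62, with the summits 252 bp apart. At 479 bp this was the longest of all the histone cluster peaks. It was followed after 115 bp by chr6:26234485-26234858, with 19 reads and a fold enrichment of 6.31. Reads at these sites are given as counted. Neither the reads nor the fold enrichments were adjusted for the depth of their list, and neither was compared by a test.

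**Figure D2:**
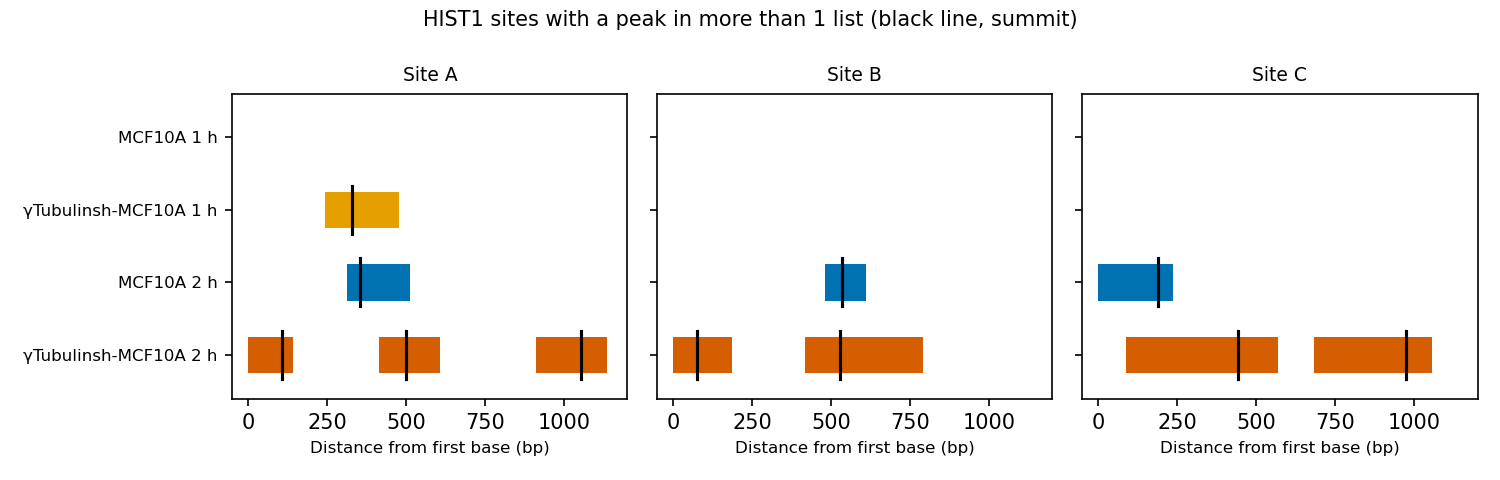
Peaks at the 3 HIST1 sites with a peak in more than 1 list, drawn to scale (horizontal axis, bp from the first base of the site) with 1 row per list and a black line at each summit. Sites A, B and C begin at 26157369, 26215857 and 26233802 on chromosome 6. At site B the summits of the 2 h lists are 7 bp apart, and MCF10A cells at 1 h have no peak at any of the sites.

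The other HIST1 peaks were each in 1 list. The peak chr6:26055992-26056142 belonged to MCF10A cells at 2 h and to no other list. It had 25 reads (16.2 to 36.9), the most of the 20 summits, over the highest background of the 20, 7.10, and the lowest fold enrichment, 3.21. In γTubulinsh-MCF10A cells at 2 h, chr6:26104638-26104754 had 15 reads and a fold enrichment of 5.05, and chr6:26123951-26124228 had 13 reads and a fold enrichment of 4.99. The latter had the fewest reads of the 20 summits. The last 2 peaks of HIST1 in these cells, chr6:26270541-26270658 and chr6:26271143-26271313, had fold enrichments of 5.34 and 3.41 with 14 and 17 reads. The second of them had a −log10 q-value of 1.40, the lowest of its list.

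All 4 peaks in HIST2 came from the γTubulinsh-MCF10A 2 h list. The peak chr1:149813339-149813532 stood alone and had 19 reads (11.4 to 29.7) over a background of 1.66, for a fold enrichment of 7.12. The other 3 lay between 149858271 and 149859206. The first of these, chr1:149858271-149858460, had 20 reads (12.2 to 30.9), again over a background of 1.66. Its fold enrichment of 7.47 and score of 79 were the highest among the 15 peaks, equal to those of chr6:26158279-26158504 in HIST1. The next peaks, chr1:149858593-149858763 and chr1:149859032-149859206, had fold enrichments of 4.74 and 5.13 with 14 and 15 reads. Gaps between these neighbours were 132 bp and 268 bp. Across both clusters, the 7 gaps between neighbouring peaks of this list within a site were between 115 bp and 484 bp.

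**Figure D3:**
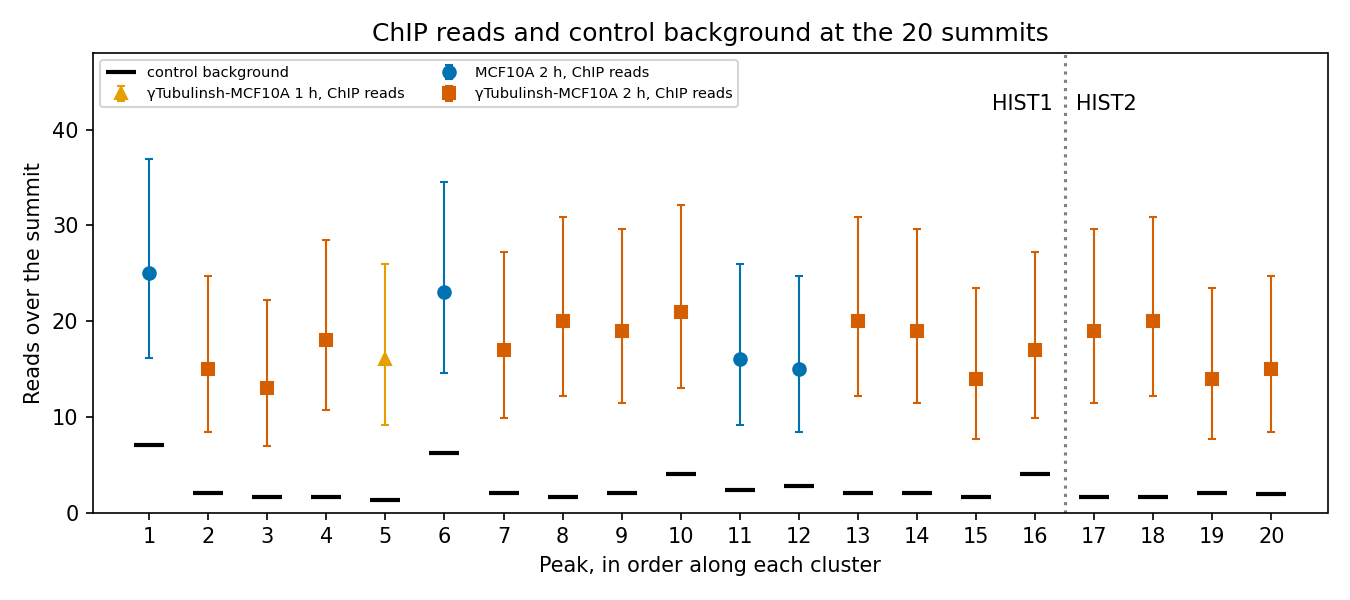
ChIP reads over the summit of each of the 20 peaks (vertical axis, with exact 95% Poisson intervals for counting error) and the control background there (black dashes), in order along HIST1 and then HIST2 (horizontal axis). The reads lie between 13 and 25 and the background between 1.28 and 7.10, with the highest background at the first peak, of MCF10A cells at 2 h.

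In the γTubulinsh-MCF10A 2 h list, the fold enrichments of the 15 histone cluster peaks ran from 3.41 to 7.47, with a median of 5.55. The other 64 nuclear peaks of the list had a median of 2.85 and reached 15.2. By fold enrichment, 8 of the histone cluster peaks were among the first 20 of the 79 nuclear peaks, and all 15 among the first 40. A limit on the Poisson p-value asks for a higher fold enrichment where the background is low, so these ranks are not independent of the background. Under 1.5 times the lowest background, the 12 other nuclear peaks had fold enrichments of 5.35 to 15.2 and 17 to 46 reads. The 13 histone cluster peaks under this limit had 4.74 to 7.47 and 13 to 20 reads. By score, which is 10 times the −log10 q-value and rises with the number of reads at a given fold enrichment, the 15 ranked lower. Scores were between 14 and 79 with a median of 48, against a median of 82 for the other peaks, and the best rank was 34. The 13 to 21 reads over their summits were few beside a median of 70.5 reads at the other nuclear peaks. Their length was between 117 bp and 479 bp with a median of 190 bp, against a median of 136 bp for the others.

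The control background separated the histone cluster peaks from most of this list. It was between 1 and 2.41 times the lowest of the list at the 15 summits, with a median of 1.21 times. The lowest value of the list, which sets these multiples, was found at 6 peaks, all of them in the histone clusters. The limit of 1.5 times therefore also rests on values of the histone cluster peaks. The other nuclear peaks began at 1.14 times, had a median of 14.8 times and reached 68.1 times. A background under 1.5 times was found at 13 of the 15 histone cluster peaks, where 31.6% of all nuclear peaks of the list were called under this limit, and the 13 were 52% of the 25 such peaks. At 3 times or above were 0 of the 15 and 51 of the other 64. The histone cluster peak of γTubulinsh-MCF10A cells at 1 h was also at the lowest background of its list, where 6.25% of nuclear peaks were under 1.5 times. In MCF10A cells at 2 h, 1 of the 4 peaks was under 1.5 times, where 8.95% of nuclear peaks were, and the 4 ranged from 1.39 to 4.19 times. The median fold enrichment was 3.79 for these 4 and 3.79 for the other nuclear peaks of that list.

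**Figure D4:**
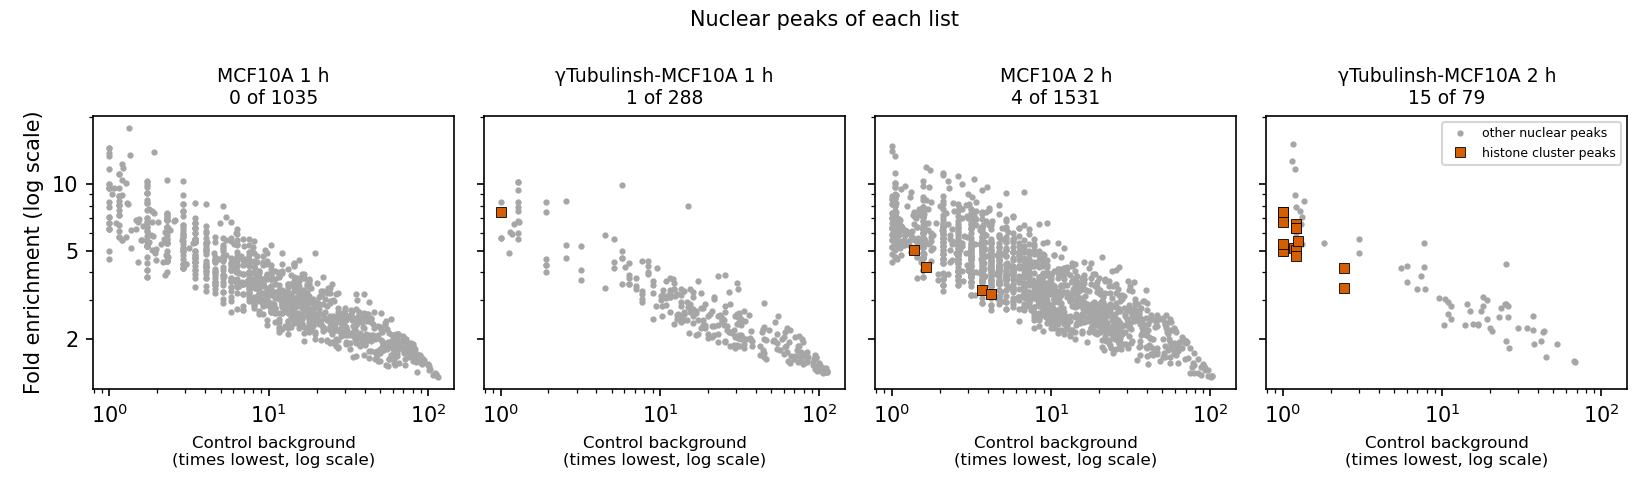
Fold enrichment (vertical axis, log scale) against control background in multiples of the lowest of the list (horizontal axis, log scale) for all nuclear peaks, with 1 panel per list and the histone cluster peaks as orange squares. In γTubulinsh-MCF10A cells at 2 h the 15 squares lie between 1 and 2.41 times, while the median of the other 64 peaks is 14.8 times.

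Histone cluster peaks of γTubulinsh-MCF10A cells at 2 h mostly had no partner in the other lists. Overlap with the MCF10A 2 h list was found for 3 of the 15, and for 65.8% of all nuclear peaks of their own list. A peak of γTubulinsh-MCF10A cells at 1 h was overlapped by 1 of the 15, against 51.9% of all nuclear peaks, and a peak of MCF10A cells at 1 h by 0, against 45.6%. These shares cover peaks of unlike background, since 51 of the 64 others and 0 of the 15 were at 3 times the lowest or above. Overlap among peaks of like background was not analysed here. Seen from the other lists, 3 of the 4 histone cluster peaks in the MCF10A 2 h list overlapped one from the γTubulinsh-MCF10A 2 h list, compared with 3.27% of all nuclear peaks. The 1 peak in the γTubulinsh-MCF10A 1 h list met a peak of both 2 h lists, where 13.2% of the nuclear peaks overlapped γTubulinsh-MCF10A cells at 2 h and 78.1% overlapped MCF10A cells at 2 h.

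An unlisted site is not a site without reads. At the genome background, the −log10 p-value of the weakest peak of each list corresponds to 9 reads over a summit in both 1 h lists, 10 in the MCF10A 2 h list and 12 in the γTubulinsh-MCF10A 2 h list. These numbers come from the weakest peaks that were listed, and the calling limits themselves were not analysed here. With the depth of the MCF10A 1 h list set to 1, and one genome size assumed for every list, the depth was 0.952 for γTubulinsh-MCF10A at 1 h. At 2 h it was 1.11 for MCF10A and 1.20 for γTubulinsh-MCF10A. In the γTubulinsh-MCF10A 2 h list, the depth and the 12 reads rest on the lowest background, which only histone cluster peaks had. They are therefore not independent of these peaks. Depth moved in the same direction as the number of histone cluster peaks between the 2 h lists. The other nuclear peaks went the other way, with 1527 in MCF10A and 64 in γTubulinsh-MCF10A cells. Between the 1 h lists, the list of lower depth, γTubulinsh-MCF10A, had 1 histone cluster peak and the MCF10A list had 0. The part of depth in these differences was not tested. How many reads MCF10A cells at 1 h had in these windows was not analysed here.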

How the data were processed

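γ-Tubulin ChIP-seq was available for 4 conditions with 2 ChIP and 2 WCE libraries each, 16 libraries in all. Reads from the Ion Proton had been mapped by the authors to hg19 with Bowtie 1.0.0, where only uniquely placed reads were kept, and peaks had been called with MACS2 2.1.1. Near-identical histone genes may lose reads under unique mapping. The methods name the differential tool of MACS2, but the lists have the columns of calls against a control and were read as such. The deposited values are a fold enrichment ratio, −log10 p-values, −log10 q-values, a score (10 times the −log10 q-value) and a summit position.

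Peaks were taken by overlap with the windows. The rule for naming gave every peak by its position where there were 40 or fewer, and all 20 are named. Members and windows were chosen with earlier results of these data known. ChIP pileup and control background were solved from fold enrichment and the Poisson p-value as MACS2 defines them, to within 0.01 of the −log10 p-value, with the pileup of γTubulinsh-MCF10A cells at 2 h scaled by 0.943. On simulated lists of 1035, 296, 1547 and 84 peaks, the right pileup was returned for 100% of peaks. The simulated peaks were built from whole pileups with the same formulas. The simulation therefore checks the solver only, and cannot tell whether the authors' lists follow these formulas. Relative depth used the lowest background, the pileup scale and the shortest peak of each list. Densities used the largest peak end of each chromosome as its length. Scripts ran in Python 3.11.15 with pandas 2.3.3, numpy 2.4.6 and scipy 1.17.1, and figures were drawn with matplotlib 3.10.9. Alternatives were score and length limits, merging, summit membership, wider windows and other overlap rules. The reads, the sequence of hg19 and the WCE libraries on their own were not analysed here.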

Additional observations from a re-analysis of the deposited data

How the results depend on the processing

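No paired analysis was possible because the lists used here pool the libraries of a condition and the separate libraries were not used here. Leaving out a replicate was not run for the same reason. Cutting the windows to the first and last HIST gene and assigning summits to genes were not run, since no annotation of hg19 was used here. Counts are given for γTubulinsh-MCF10A at 1 h, then MCF10A at 2 h, then γTubulinsh-MCF10A at 2 h, and the MCF10A 1 h list had 0 under every setting. Membership by summit and windows widened by 100000 bp left 1, 4 and 15. When only scores from the pooled median (85) or the pooled 75th percentile (132) upwards were kept, no histone cluster peak was left in any list (0, 0 and 0, or 0% of each list), so the difference between lists rests on peaks of low score. A length of at least 200 bp left 1, 2 and 5. Merging within 1000 bp gave 1, 4 and 8, and the shares of the merged nuclear peaks were then 0.510%, 0.586% and 13.1%. A reciprocal overlap of at least 50% left 1 overlap, between γTubulinsh-MCF10A 1 h and MCF10A 2 h, and 0 in every other pairing. With summits within 500 bp, γTubulinsh-MCF10A 2 h peaks with a partner rose to 5 in MCF10A 2 h and to 2 in γTubulinsh-MCF10A 1 h. Relative to the median background of the list, the median background of the histone cluster peaks was 0.0443, 0.422 and 0.118 times.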

Other observations

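Outside the histone windows, 12 nuclear peaks of γTubulinsh-MCF10A cells at 2 h also had a control background under 1.5 times the lowest of the list. Of these, 6 lay on chromosome 17 between 40764958 and 40818256, with 24 to 46 reads and fold enrichments from 7.88 to 15.2, the 6 highest of the nuclear list. On chromosome 16, 3 peaks lay side by side between 56643113 and 56644373, with 17 to 24 reads and fold enrichments of 5.35, 7.53 and 6.61. On chromosome 6, outside the HIST1 window, the peak from 30710629 to 30711154 had 23 reads and a fold enrichment of 7.13. The last 2 were single peaks on chromosomes 13 and 22, with 18 and 19 reads and fold enrichments of 5.99 and 6.31. These places were named after their values were seen, and the genes there were not analysed here.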
